A study of Mus musculus with 36 samples.

Results

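Mouse pancreatic fibroblasts that had been grown with tumour sub-clone H were compared with fibroblasts grown with tumour sub-clone V, and 56 of 14439 tested genes (0.388%) were called different. The comparison takes the 4 clone H libraries against the 4 clone V libraries, out of 36 libraries in 9 groups of 4. Of the 56 genes, 14 were higher with clone V (0.097% of those tested) and 42 were lower (0.291%). The pair was chosen because so few genes separated it, and the 56 genes were chosen by their difference between these 8 libraries. Their counts, fold changes and adjusted p-values between clones H and V are therefore given as a description and support nothing by themselves.

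All groups held fibroblasts from the pancreas of C57BL/6 mice. The 8 co-culture groups were kept for 48 h in direct contact with GFP-labelled tumour cells, either KPC1 or sub-clone E, H, K, M, N, T or V, and the remaining group was fibroblasts in mono-culture. The mono-culture libraries are titled PSC, which the labels do not explain, and no culture time is given for them. After co-culture the fibroblasts were separated from the tumour cells by fluorescence-activated sorting on the GFP of the tumour cells. Each sub-clone is 1 clone, and nothing in the labels says that the 4 libraries of a group came from separate cultures. The p-values therefore measure the spread between libraries only, which may be technical. That spread was estimated over all 36 libraries and not from the 8 compared, and a fit of those 8 alone called 1 gene. In bulk RNA, fewer cells of a type and less RNA per cell cannot be told apart.

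The clone H libraries held 17441494 to 21985538 counts and the clone V libraries 16956085 to 21670728, within the range of 12532122 to 21985538 over all 36 libraries. Levels are given as CPM, the counts scaled to the total over tested genes of each library times its TMM scaling factor. Fold changes are log2 differences of clone V minus clone H from 1 edgeR quasi-likelihood fit over all 36 libraries. Adjustment was by Benjamini-Hochberg over all tested genes, with a threshold of 0.05. Fibroblast markers were high with both clones: Col1a1, a chain of type I collagen, was at 5295 ± 990 CPM with clone H and at 5283 ± 1372 CPM with clone V (SD, n = 4), and the 12 genes of a fibroblast identity list summed to 19847 to 30411 CPM with clone H and at 18744 to 30617 CPM with clone V. RNA of epithelial genes was also present. The 17 listed epithelial genes were taken to mark the tumour cells, but none of the 36 libraries was of tumour cells, so this was not tested. These genes summed to 155, 72.9, 277 and 205 CPM in clone H libraries 1 to 4 and to 39.9, 33.5, 136 and 236 CPM in clone V libraries 1 to 4, against 1.83 to 3.38 CPM in mono-culture. The keratins Krt8, Krt18 and Krt19 and the claudin Cldn6 held most of the sum, with Krt18 at 93.3 ± 44.9 CPM with clone H and at 54.2 ± 47.7 CPM with clone V. Of the 10 tested epithelial genes 5 were positive and 5 negative, and the cadherin Cdh1 lay the other way, at 4.74 ± 3.04 CPM with clone H and at 15.04 ± 11.5 CPM with clone V, as did Ocln and Esrp2. Epcam and Cldn4 were at 0 in all 8 libraries. Immune genes summed to 13.7 to 24.9 CPM with clone H and at 5.54 to 18.8 CPM with clone V, and endothelial genes to 1.68 to 2.94 and 3.66 to 4.85 CPM.

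Fibroblasts build and remodel the extracellular matrix of the pancreas. In pancreatic cancer they can take up contractile, matrix-producing or cytokine-secreting states in response to signals from tumour cells, and they send growth factors, matrix proteins and metabolites back. Among the gene families met below, the small leucine-rich proteoglycans are secreted matrix proteins that bind collagen fibrils and growth factors, Wnt ligands signal through Frizzled receptors to regulate growth and cell polarity, and imprinted genes are transcribed mainly from the chromosome of 1 parent and often control growth.

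The likeness of the 2 co-cultures was first described across all genes. Of the 28 pairs of co-cultures, clones H and V had the fewest called genes, followed by clones E and N with 183 and clones K and M with 323. By the size of the differences clones E and N were closer: the root mean square log2 difference over all tested genes was 0.46 for clones H and V, 0.42 for clones E and N and 0.45 for clones K and M. Over genes of at least 2 CPM it was 0.29 for clones H and V, 0.27 for clones E and N and 0.32 for clones K and M. The median SD of log2 CPM among replicate libraries was 0.25 for clone V and likewise 0.25 for KPC1, while it was 0.21 for clone H and 0.13 for mono-culture. The median log2 difference over all tested genes was 0.00089 and the median standard error 0.15. The 95% interval of the difference lay within a 2-fold change either way for 79.9% of tested genes, and for 94.1% of the 11404 genes with a mean of at least 2 CPM over the 8 libraries. At an unadjusted p under 0.05 the comparison gave 1712 genes, 729 higher and 983 lower with clone V.

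**Figure D1:**
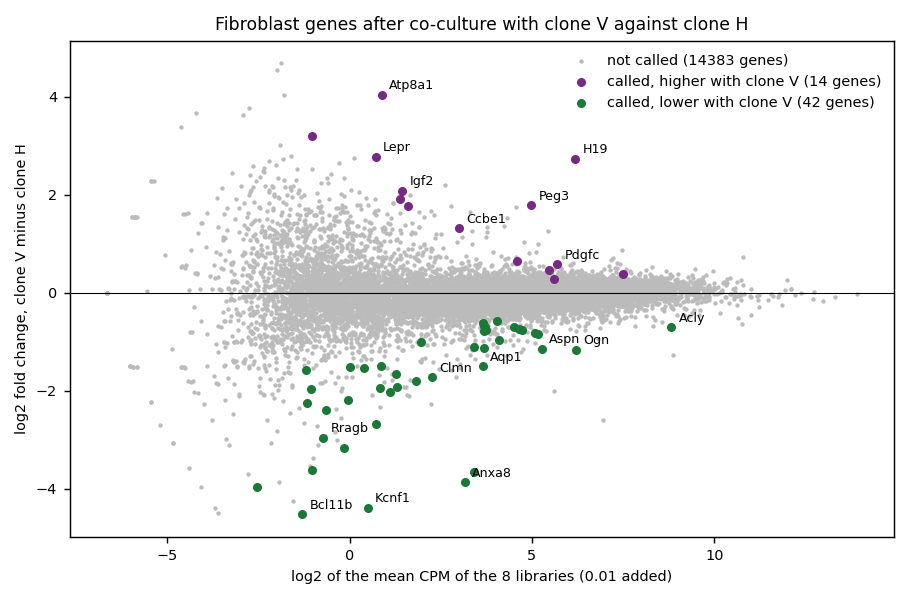
Log2 fold change of clone V minus clone H (y axis) against log2 mean CPM over the 8 libraries (x axis, 0.01 CPM added), with 1 point for each tested gene. The 14 genes called higher with clone V are purple, the 42 called lower are green and the 14383 not called are grey.

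Of the 56 genes, 53 had all 4 libraries of one clone above all 4 of the other, an arrangement found in 4.07% of tested genes. The exceptions were Peg3, Lpcat2 and Fam73a. The difference was at least 2-fold for 37 genes, and 19 genes had a mean under 2 CPM over the 8 libraries. The number of genes called depended on single libraries: 20 were called without clone H library 1, 17 without clone H library 3, 29 without clone H library 4, 19 without clone V library 1, 29 without clone V library 3 and 125 without clone V library 4. In all 8 fits that left out 1 library, 8 of the 56 genes were called, namely Atp8a1, Lepr, Aspn, Trpv4, Clmn, Gprc5c, Rragb and Kcnf1, and 16 were called in at least 6. Usp53, Sept4 and Trp53i11 were among those called in 1 of the 8 fits, and 13 genes, Palmd, Anxa8, Atp1b1, Adcyap1r1, Peg3, Tcf7, Slc25a44, Ctnnal1, Podnl1, Ablim1, Lpcat2, Zkscan7 and Fam73a, in 2. No gene of the 56 changed direction in any of these fits.

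Imprinted genes made up 3 of the 14 genes higher with clone V. H19, a maternally expressed non-coding RNA (ENSMUSG00000000031, chr7:142575529-142578143 on GRCm38), was at 11.6, 20.96, 10.99 and 32.5 CPM in clone H libraries 1 to 4 and at 152, 181, 66.4 and 111 CPM in clone V libraries 1 to 4. The highest clone H library thus lay below the lowest clone V library, and mono-culture was at 2.88 ± 1.09 CPM (SD, n = 4). The log2 difference was 2.74 (SE 0.585). Igf2, the neighbouring paternally expressed growth factor (ENSMUSG00000048583, chr7:142650766-142666816), was at 0.599, 1.11, 0.981 and 1.40 CPM with clone H and at 3.76, 6.93, 2.94 and 3.95 CPM with clone V, a log2 difference of 2.09 (SE 0.423). All 4 clone V libraries were above all 4 clone H libraries, and clone V had the highest mean of the 9 groups for both genes. H19 was called in 3 and Igf2 in 5 of the 8 fits without 1 library.

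Peg3, a paternally expressed zinc finger protein, differed in another way. It was at 15.6, 14.1, 12.3 and 14.7 CPM with clone H and at 15.5, 22.6, 64.5 and 94.4 CPM with clone V. Clone V libraries 3 and 4 were high, whereas library 1 lay within the clone H range. The log2 difference was 1.79 (SE 0.398) and fell to 1.27 without clone V library 4 and 1.64 without clone V library 3, at neither of which Peg3 was called. Of the 7 other measured genes in the list of imprinted growth genes none was called, and their log2 differences ran from -1.33 for the non-coding RNA Meg3 to 0.27 for Ndn. Dlk1, a membrane protein of the Meg3 locus, was at -0.47. In all, 3 of the 10 measured genes of the list were called, each higher with clone V, where 0.097% of all tested genes were. The list median was -0.06, with 6 of the 10 genes negative. The lists were chosen with earlier results of these data known, so this count supports nothing by itself.

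Of the other genes higher with clone V, Tnfsf18, Wnt11, Pdgfc, Ccbe1 and Nell2 encode ligands or secreted proteins and Lepr a receptor. Tnfsf18, the ligand of the T-cell receptor GITR, was at 0.898, 1.41, 0.981 and 1.05 CPM with clone H and at 1.88, 7.17, 4.20 and 3.29 CPM with clone V, with a log2 difference of 1.92 (SE 0.388). Wnt11, a Wnt ligand linked to cell polarity, was at 1.74, 1.57, 1.39 and 0.786 CPM with clone H and at 4.48, 4.86, 3.81 and 5.56 CPM with clone V, with a log2 difference of 1.78 (SE 0.356). Neither gene overlapped between the clones, and both were under 0.5 CPM in every mono-culture library. Pdgfc, a growth factor that signals through the platelet-derived growth factor receptor alpha, was at 41.0, 41.0, 45.6 and 38.7 CPM with clone H and at 65.4, 65.1, 56.9 and 60.8 CPM with clone V. The 4 libraries of each clone lay close together, mono-culture was lower at 18.1 CPM, and the log2 difference was 0.58 (SE 0.121).

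Ccbe1, a secreted protein needed for processing of the lymphatic growth factor VEGF-C, was at 5.21, 4.19, 3.77 and 5.06 CPM with clone H and at 9.46, 9.72, 10.4 and 16.1 CPM with clone V. It was the 1 gene of the 56 that was called in opposite directions against mono-culture (7.61 ± 1.02 CPM): lower with clone H by a log2 difference of -0.74 and higher with clone V by 0.58. The 4 clone H libraries lay below all 4 mono-culture libraries and the 4 clone V libraries above them. Lepr, the leptin receptor, was at 0.305 to 0.479 CPM with clone H and at 0.610, 1.49, 3.92 and 5.44 CPM with clone V, and Nell2, a secreted glycoprotein, was at 0 to 0.152 CPM with clone H and at 0.654 to 1.20 CPM with clone V. The clone V libraries spread widely for Lepr, with library 1 near the clone H range and library 4 highest.

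Tcf7, a transcription factor of the Wnt pathway, was the single called gene of 18 measured in a Wnt list that did not hold Wnt11. It was at 23.8, 18.6, 16.5 and 16.2 CPM with clone H and at 26.5, 33.9, 27.1 and 29.8 CPM with clone V, with a log2 difference of 0.64 (SE 0.147). The groups did not overlap, although the gene was called in 2 of the 8 fits without 1 library. The feedback genes Axin2, Nkd1 and Nkd2, which Wnt signalling induces in many cells, had log2 differences of 1.24, 1.13 and 1.26 and the ligand Wnt10b one of -1.49, none of them called. The list had a median of 0.20, with 12 of 18 positive, where 50.1% of all tested genes were positive.

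The remaining genes higher with clone V have varied roles. Atp8a1, a phospholipid flippase, was at 0.155 to 0.253 CPM with clone H and at 1.02, 0.770, 3.05 and 9.09 CPM with clone V, with mono-culture at 0.420 CPM. All clone V libraries were above clone H, yet the highest was more than 10 times the lowest. Across all co-culture libraries, each taken relative to its group mean, Atp8a1 had a Pearson's r of 0.62 with the epithelial sum. Small differences without overlap between the clones were found for Usp53, Tgoln1 and Slc25a44. Usp53, a member of the deubiquitinase family, had a log2 difference of 0.46 and was called in 1 of the 8 fits without 1 library. Tgoln1, a protein of the trans-Golgi network, had one of 0.38 and was called in 3. Slc25a44, a mitochondrial carrier of branched-chain amino acids, had one of 0.28 and was called in 2. Slc25a44 was at 41.1 to 46.6 CPM with clone H and at 48.5 to 58.1 CPM with clone V. Reads of Tgoln1 can be shared with its near-identical copy Tgoln2, and its value is uncertain.

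**Figure D2:**
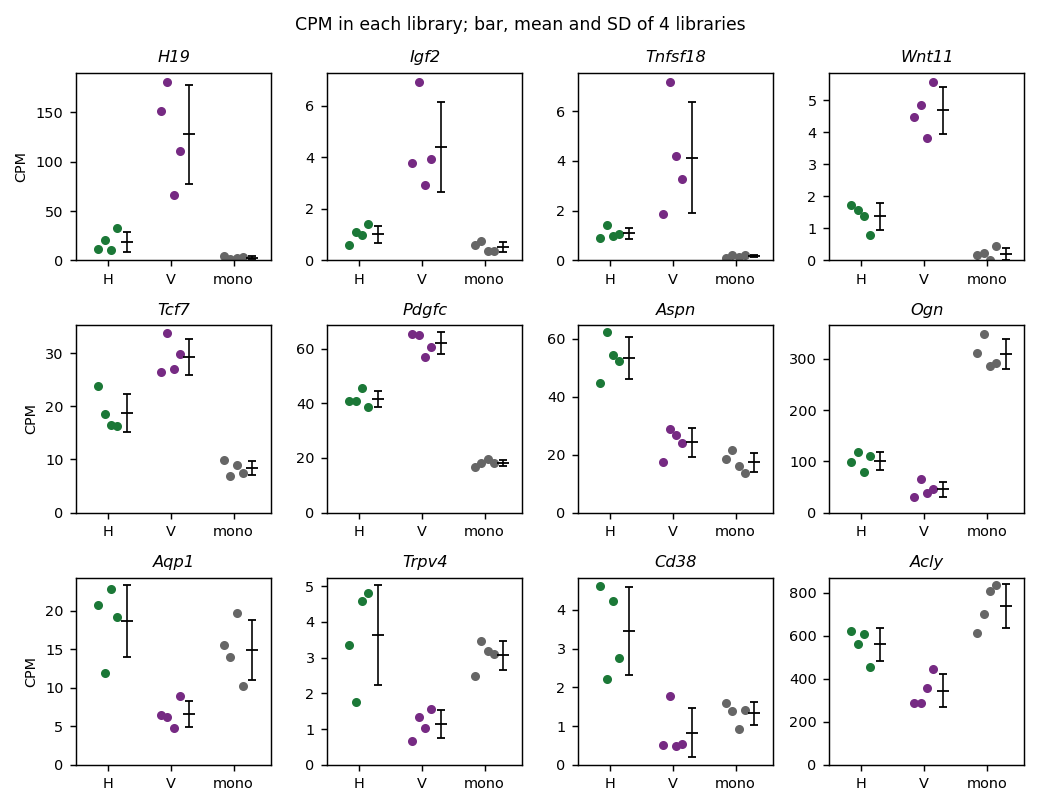
CPM in each library (points) with mean and SD (bars) for 12 called genes in clone H, clone V and mono-culture, 4 libraries each. The genes H19 to Pdgfc lie higher with clone V and the genes Aspn to Acly lie lower, with no overlap between the 2 clones.

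Among the genes lower with clone V, the group that stood together by position was 3 matrix genes on chromosome 13. Their promoters are shown because the genes are neighbours that moved the same way. The sequences are from RefSeq on GRCm38.p6, plus strand, 250 bases before to 50 bases after the start, 5′ to 3′, with TATAAA or its reverse complement in capitals. They lie at chr13:49504560-49504859 for Ecm2, chr13:49544193-49544492 for Aspn and chr13:49607765-49608064 for Ogn.
Ecm2: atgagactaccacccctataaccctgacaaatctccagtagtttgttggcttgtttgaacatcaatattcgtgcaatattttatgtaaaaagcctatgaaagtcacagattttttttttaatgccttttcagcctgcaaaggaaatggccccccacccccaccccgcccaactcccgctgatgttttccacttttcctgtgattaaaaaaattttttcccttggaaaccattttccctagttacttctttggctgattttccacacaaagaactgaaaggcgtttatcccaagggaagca
Aspn: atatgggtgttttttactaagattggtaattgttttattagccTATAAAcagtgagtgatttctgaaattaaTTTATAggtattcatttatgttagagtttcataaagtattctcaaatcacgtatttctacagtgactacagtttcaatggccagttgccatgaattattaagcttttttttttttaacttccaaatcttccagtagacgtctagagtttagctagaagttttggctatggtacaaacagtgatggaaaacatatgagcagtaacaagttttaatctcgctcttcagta
Ogn: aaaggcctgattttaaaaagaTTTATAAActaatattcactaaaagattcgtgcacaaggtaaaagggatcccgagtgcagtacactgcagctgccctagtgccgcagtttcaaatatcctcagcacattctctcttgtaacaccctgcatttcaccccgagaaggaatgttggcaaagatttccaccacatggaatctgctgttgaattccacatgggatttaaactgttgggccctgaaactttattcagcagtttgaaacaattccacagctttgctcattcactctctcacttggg

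Aspn (asporin) and Ogn (osteoglycin) encode small leucine-rich proteoglycans and Ecm2 a related leucine-rich matrix protein. Aspn was at 44.7, 62.2, 54.6 and 52.5 CPM with clone H and at 17.4, 29.03, 26.8 and 23.9 CPM with clone V, a log2 difference of -1.14 (SE 0.204). Ogn was at 98.7, 119, 78.4 and 110.1 CPM with clone H and at 30.8, 65.7, 38.7 and 46.6 CPM with clone V, a log2 difference of -1.16 (SE 0.224). Neither gene overlapped between the clones. The mono-culture level set them apart from each other: Aspn was at 17.4 ± 3.26 CPM there, below clone H, whereas Ogn was at 309.7 ± 28.7 CPM, above every library of both clones. Ecm2 was at 1.497, 1.57, 1.08 and 1.79 CPM with clone H and at 0.407, 0.578, 0.599 and 0.479 CPM with clone V, with mono-culture at 2.50 CPM.

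The 3 genes span chr13:49504810-49624501 on GRCm38, with 11.7 kb between Ecm2 and Aspn and 40.5 kb between Aspn and Ogn. Omd, a further leucine-rich proteoglycan between Aspn and Ogn, was also negative (-0.85, SE 0.560) but not called. Cenpp, which spans the interval, was at -0.09, and Ippk, which lies before it, was at -0.01. How the counting used strand is not given in the sources used here, so reads of overlapping antisense genes cannot be told apart. Podnl1, a podocan-like member of the same proteoglycan family on another chromosome, was lower by a log2 difference of -0.70. TATAAA matched 2 times in the Aspn window, 2 times in the Ogn window, where the matches overlap on opposite strands, and 0 times in the Ecm2 window. All of these matches lay toward the upstream end of the window and not near the start. Of the 39 called genes matched to a RefSeq promoter, 6 held TATAAA on either strand, and 6.99% of 9989 tested genes did.

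**Figure D3:**
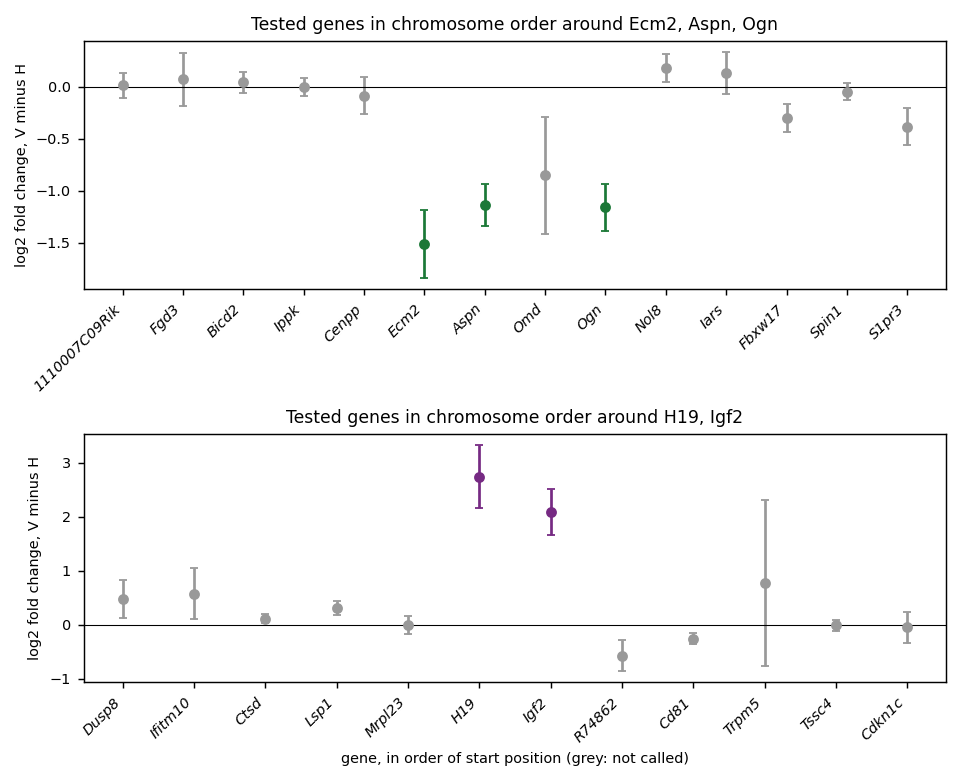
Log2 fold change of clone V minus clone H with its standard error for the genes around Ecm2, Aspn and Ogn and around H19 and Igf2, in gene order. Ecm2, Aspn and Ogn lie below 0 and H19 and Igf2 above 0. Of the uncalled genes, Nol8, Iars, Mrpl23 and Ctsd lie within 0.2 of 0. Others lie further off, such as Omd at -0.85, R74862 at -0.57, Ifitm10 at 0.58 and Dusp8 at 0.47.

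In all, 11 of the 56 genes formed 7 pairs within 500 kb of each other, and in each pair the genes moved the same way. Of these pairs 3 are within the chromosome 13 set, 42 of the 56 genes share a direction by themselves, and of 102656 pairs of tested genes within that distance 51.5% had differences of the same sign. Besides the chromosome 13 genes and H19 with Igf2 (72.6 kb apart on chromosome 7), these were Aqp1 and Adcyap1r1 (103.4 kb, chromosome 6), Ctnnal1 and Epb4.1l4b (126.8 kb, chromosome 4) and Palmd and D3Bwg0562e (350.2 kb, chromosome 3). Mrpl23 and Lsp1, near H19, had log2 differences of -0.01 and 0.31. How many pairs within 500 kb any 56 tested genes would form was not worked out, so the count of 7 is a description only.

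Several called genes lower with clone V encode channels, pumps or receptors of the cell surface. Aqp1, a water channel, was at 20.7, 11.97, 22.9 and 19.2 CPM with clone H and at 6.41, 6.21, 4.79 and 8.97 CPM with clone V, a log2 difference of -1.503 (SE 0.302). Trpv4, a calcium-permeable channel opened by swelling and heat, was at 3.35, 1.77, 4.59 and 4.80 CPM with clone H and at 0.661, 1.35, 1.04 and 1.56 CPM with clone V, a log2 difference of -1.66 (SE 0.299). For both, clone V was the lowest of the 9 groups. Atp1b1, the beta subunit of the sodium pump, was at 17.2, 13.2, 24.6 and 15.4 CPM with clone H and at 6.05, 6.98, 9.10 and 10.3 CPM with clone V, and both clones were far under mono-culture at 77.5 ± 11.1 CPM. The log2 difference between the clones was -1.12 (SE 0.263).

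Adcyap1r1, the receptor of the peptide PACAP, which couples to cyclic AMP, was at 14.9, 21.8, 11.6 and 10.1 CPM with clone H and at 5.70, 7.85, 5.72 and 7.72 CPM with clone V. The clone V values lay close to mono-culture at 6.69 CPM, and clone H was the highest of the 9 groups. Other genes of cyclic nucleotide signalling were Pde2a, a phosphodiesterase that breaks down cyclic AMP and cyclic GMP, at 22.8 ± 3.41 CPM with clone H and at 11.7 ± 1.69 CPM with clone V, and Akap7, an anchor of protein kinase A, at 19.8 ± 3.26 and 13.2 ± 1.72 CPM. The identifier of Pde2a carries another name in GENCODE M21, and its value is uncertain. Cd38, an enzyme that consumes NAD, was at 4.61, 2.22, 4.23 and 2.75 CPM with clone H and at 0.509, 1.78, 0.490 and 0.538 CPM with clone V. Clone V library 2 was the one near the clone H range. Gprc5c, an orphan receptor (log2 difference -2.20), and Lynx1, a modulator of nicotinic acetylcholine receptors (-0.61), were lower too.

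Acly and Acss2, both enzymes that make acetyl-CoA, were lower with clone V, and their promoters are shown for the CCAAT box, the site of the factor NF-Y, which acts beside sterol-responsive factors in many lipid genes. They are from RefSeq on GRCm38.p6, 250 bases before to 50 bases after the start, 5′ to 3′ on the strand of the gene, at chr11:100527951-100528250 (minus) for Acly and chr2:155517793-155518092 (plus) for Acss2, with CCAAT or its reverse complement in capitals.
Acly: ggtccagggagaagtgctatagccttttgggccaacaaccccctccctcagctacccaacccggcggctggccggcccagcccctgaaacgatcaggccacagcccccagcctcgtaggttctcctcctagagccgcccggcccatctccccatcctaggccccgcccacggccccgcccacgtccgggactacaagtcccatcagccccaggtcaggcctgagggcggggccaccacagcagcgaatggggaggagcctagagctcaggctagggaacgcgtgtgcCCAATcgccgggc
Acss2: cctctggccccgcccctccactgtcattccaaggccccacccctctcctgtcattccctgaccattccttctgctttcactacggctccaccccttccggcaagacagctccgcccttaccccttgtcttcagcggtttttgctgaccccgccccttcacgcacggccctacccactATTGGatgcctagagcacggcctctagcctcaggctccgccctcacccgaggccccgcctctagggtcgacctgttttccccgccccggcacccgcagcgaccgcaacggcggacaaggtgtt

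Acly (ENSMUSG00000020917, chr11:100476353-100528000 on GRCm38), ATP citrate lyase, makes cytosolic acetyl-CoA from citrate. It was at 623, 559.6, 607 and 453 CPM with clone H and at 289, 285, 357 and 447 CPM with clone V, so that clone V library 4 almost reached clone H library 4, with a log2 difference of -0.70 (SE 0.144). Acss2 (ENSMUSG00000027605, chr2:155517948-155585724), which makes acetyl-CoA from acetate, was at 55.7, 40.1, 42.2 and 35.1 CPM with clone H and at 15.6, 25.6, 25.8 and 30.3 CPM with clone V, with a log2 difference of -0.83 (SE 0.171). Mono-culture was higher than either clone, at 739 ± 102 CPM for Acly and 65.3 CPM for Acss2. Each window held 1 match to CCAAT, before the start for Acss2 and within the 50 bases after it for Acly. On either strand, 12 of the 39 called genes and 38.9% of the tested genes held CCAAT.

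Acly belongs to a list of sterol and fatty acid synthesis genes, of which 22 were tested. All 22 had a negative log2 difference, where 49.8% of tested genes did, with a median of -0.34 beside 0.00089 over all tested genes. Acly alone was called by edgeR, and DESeq2 called Lss, Dhcr7 and Fdps with it. In all, 11 of the 22 were under 0.05 unadjusted, where 11.9% of tested genes were. Values not called by edgeR included Lss, lanosterol synthase, at -0.68, Dhcr7, of the last step of cholesterol synthesis, at -0.66, Fdps, farnesyl diphosphate synthase, at -0.49 and Scd1, the stearoyl-CoA desaturase, at -0.48. The median stayed between -0.43 and -0.24 when any 1 library was left out. Genes of a pathway are not independent of each other, and no test was made on the list.

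Further called genes encode signalling or nuclear proteins. Syk, a tyrosine kinase best known in blood cells, was at 2.66 ± 0.539 CPM with clone H and at 0.944 ± 0.549 CPM with clone V. Ptprc, the pan-leukocyte marker, was at 0.12 CPM or less in all 8 libraries. Cd68 and Cd14 lay the same way as Syk, at 9.31 and 8.60 CPM with clone H and at 4.76 and 5.89 CPM with clone V. All 3 tested genes of the immune list were negative (median -0.55), and none was called. The part of immune RNA in the Syk difference was not tested. Rragb, a Rag GTPase that links amino acids to mTORC1, was at 0.479, 0.505, 0.826 and 2.44 CPM with clone H and at 0.134 ± 0.0665 CPM with clone V, both under mono-culture at 3.56 CPM. Clone H library 4 was the highest by far. Ppp2r2b, a regulatory subunit of protein phosphatase 2A, had a log2 difference of -1.94, Neurl1b, a ubiquitin ligase of Notch ligands, one of -0.76 and Sema3f, a secreted semaphorin, one of -0.76. Rbm20, a splicing factor, was at 3.11, 2.42, 6.04 and 3.93 CPM with clone H and at 0.458, 1.49, 0.763 and 1.38 CPM with clone V. Bcl11b, a zinc finger transcription factor, was counted 58 times over the clone H libraries and 2 times over the clone V libraries, a ratio of 27.8 with a 95% counting interval of 7.35 to 235. It had 0 counts in mono-culture, and of the other groups KPC1 alone had a mean over 0.1 CPM (0.999).

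Of the other called genes, Clmn, Sept4, Ablim1, Ctnnal1 and Epb4.1l4b have roles in the cytoskeleton or at cell contacts, a grouping made after the calls. Clmn, an actin-binding membrane protein, was at 5.51, 3.54, 9.39 and 11.2 CPM with clone H and at 2.19, 2.50, 1.42 and 2.87 CPM with clone V, with a log2 difference of -1.72 (SE 0.291). The clone H libraries spread about 3-fold but did not meet the clone V libraries. Sept4, a septin, was at 6.41, 4.95, 5.06 and 4.45 CPM with clone H and at 1.63, 4.33, 2.07 and 2.33 CPM with clone V, where library 2 almost reached clone H. Ablim1, an actin-binding LIM protein, had a log2 difference of -0.84 and Ctnnal1, an alpha-catulin, one of -0.70. Epb4.1l4b, a FERM-domain protein, had 24 counts with clone H and 1 with clone V, a ratio of 22.996 with an interval of 3.75 to 946. The intervals cover counting error only.

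Outside these sets, the log2 differences were -2.68 for Galnt15, a starter enzyme of mucin-type glycans, -2.26 for Trim14, a tripartite motif protein, -1.53 for Lpcat2, which makes phosphatidylcholine, -1.57 for the zinc finger protein Zkscan7, -0.78 for the copine Cpne8, -0.75 for Lurap1l, -2.39 for Trp53i11, -3.63 for 2610305D13Rik, -1.97 for D3Bwg0562e and -1.80 for Fam73a, a protein of mitochondrial fusion. Galnt15 was at 4.61, 1.52, 2.79 and 2.53 CPM with clone H and at 0.0509, 0.626, 0.381 and 0.718 CPM with clone V. Fam73a and Lpcat2 overlapped between the clones in 1 library each.

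The largest fold changes among genes over 2 CPM were found for genes whose levels moved with the epithelial sum. Palmd (palmdelphin) was at 13.4, 8.94, 33.8 and 22.3 CPM with clone H and at 0.814, 0.530, 1.96 and 3.05 CPM with clone V, and it was at 0 in mono-culture. Anxa8, an annexin, was at 15.6, 7.42, 25.5 and 18.3 CPM with clone H and at 0.610, 0.144, 0.817 and 3.23 CPM with clone V, with 0.661 CPM in mono-culture. Clone H library 2, with the lowest epithelial sum of its group, had the lowest Palmd and Anxa8, and clone V library 4, with the highest sum, had the highest. Across the 32 co-culture libraries, each taken relative to its group mean, Pearson's r with the epithelial sum was 0.94 for Palmd, 0.92 for Anxa8, 0.87 for Kcnf1, a potassium channel subunit, and 0.75 for Onecut3, a homeobox factor. These libraries share the sort and the total they are scaled to.

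Kcnf1 was at 2.81, 1.57, 4.39 and 1.92 CPM with clone H and at 0.0509, 0.0481, 0.218 and 0.179 CPM with clone V, and Onecut3 at 1.86, 0.657, 2.79 and 1.18 CPM with clone H and at 0.102 to 0.299 CPM with clone V. Of the 56 genes, 10 had an r of at least 0.5 (8.19% of tested genes did) and 2, Igf2 and Wnt11, had -0.5 or less (4.78% did). Besides Palmd, Anxa8, Kcnf1 and Onecut3, the 10 were Trim14 (0.65), Fam73a (0.649), Atp8a1 (0.62), Ctnnal1 (0.59), Galnt15 (0.53) and Rragb (0.504). Of these 10, Atp8a1 alone was higher with clone V. With the epithelial sum as a covariate, an alternative added after seeing the data, 100 genes were called and 51 of the 56 were among them. The log2 differences then were -2.85 for Palmd, -3.21 for Anxa8, -3.73 for Kcnf1 and -2.37 for Onecut3, all still called, compared with -3.66, -3.87, -4.39 and -3.16 without the covariate. The part of epithelial RNA in these and the other differences was not tested otherwise.

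**Figure D4:**
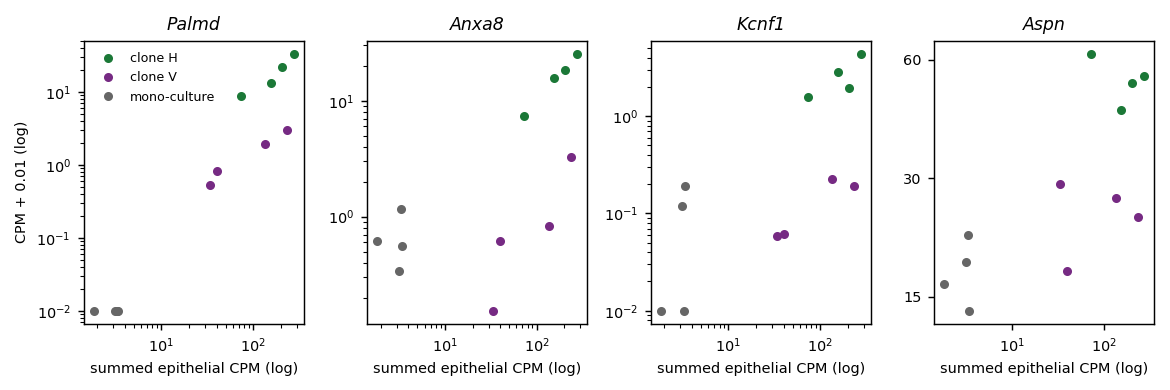
CPM (0.01 added, log axis) of Palmd, Anxa8, Kcnf1 and Aspn against the summed CPM of 17 epithelial genes (log axis) in the 12 libraries of clone H, clone V and mono-culture. The sums run from 72.9 to 277 CPM with clone H and from 33.5 to 236 CPM with clone V, and Palmd runs from 8.94 to 33.8 and from 0.530 to 3.05 CPM.

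Gene lists for the states of fibroblasts held few called genes. No gene was called of the 17 measured in the myofibroblastic list (median log2 difference 0.11), of 16 in the inflammatory list (-0.01), of 16 collagens (-0.05), of 12 fibroblast identity genes (-0.12) or of 12 BMP and Id genes (-0.08) by edgeR's quasi-likelihood test. At an unadjusted p under 0.05, where 11.9% of all tested genes lay, these lists held 2, 1, 1, 0 and 6 genes. DESeq2 called 1 gene of them, Bmper, a secreted regulator of BMP (log2 difference 1.03), and limma called 0. Over all 34 lists 5 genes were called: Acly, Peg3, H19, Igf2 and Tcf7. This count fell to 1 without clone H library 1, 0 without clone H library 3, 3 without clone H library 4, 2 without clone V library 1, 1 without clone V library 2 and 3 without clone V library 3. Some lists leaned one way without a called gene, where 49.8% of all tested genes were negative and 50.1% positive. All 25 interferon-stimulated genes were negative with a median of -0.39, but the median ran from -0.67 without clone H library 1 to -0.07 without clone H library 4. Of 34 ATF4 targets, genes of the amino acid stress response, 32 were positive with a median of 0.19 (0.07 without clone H library 4 to 0.33 without clone V library 4), and 14 of 15 endoplasmic reticulum chaperones were positive with a median of 0.15. At an unadjusted p under 0.05, where 11.9% of all tested genes lay, these lists held 1, 4 and 1 genes. DESeq2 called 1 gene of these lists, the chaperone Dnajb9.

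The threshold fell between genes of nearly equal adjusted p. Inside it were Usp53 (adjusted p = 0.0475 by edgeR's quasi-likelihood test) and Atp1b1 (0.0449), and just outside were Gtf2h1, a subunit of the transcription factor TFIIH (0.0503), Fam13a (0.0510) and Catsperg1 (0.0510). Gtf2h1 was at 74.5 ± 6.36 CPM with clone H and at 97.8 ± 20.03 CPM with clone V (SD, n = 4). Fam13a, at 0.870 and 0.349 CPM, and Catsperg1, at 0.348 and 0.0513 CPM, were lower with clone V. All 4 clone H libraries lay on one side of the 4 clone V libraries for each of these genes.

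Against mono-culture, 7826 genes (54.2%) were called with clone H and 8414 (58.3%) with clone V. These comparisons share the mono-culture libraries and use the libraries that chose the 56 genes, so their values are set side by side only. Of the 14 genes higher with clone V, 7 were called higher than mono-culture with both clones: Tnfsf18, Pdgfc, Usp53, Lepr, Wnt11, H19 and Tcf7. A further 5, Slc25a44, Atp8a1, Tgoln1, Igf2 and Nell2, were called with clone V and not with clone H, Peg3 was called lower with clone H, and Ccbe1 went opposite ways.

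Of the 42 genes lower with clone V, 10 were called lower than mono-culture with both clones, namely Atp1b1, Acss2, Rragb, Podnl1, Sema3f, Acly, Ecm2, Ogn, Lynx1 and Ablim1. For Ogn the log2 difference from mono-culture was -1.61 with clone H and -2.77 with clone V, and for Sema3f -1.36 and -2.12. Palmd, Sept4 and Aspn were higher than mono-culture with both. Another 15 genes were called higher with clone H and were not called with clone V, among them Cd38, Adcyap1r1, Pde2a, Anxa8, Kcnf1 and Galnt15, and 13 were called lower with clone V and were not called with clone H, among them Aqp1, Trpv4, Gprc5c, Trim14 and Rbm20. Lpcat2 was called in neither. Among the 9 group means, clone V was the highest for 12 of the 56 genes and the lowest for 24, and clone H was the highest for 5 and the lowest for 1, where clone V was at an extreme for 35.5% and clone H for 13.3% of tested genes.

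**Figure D5:**
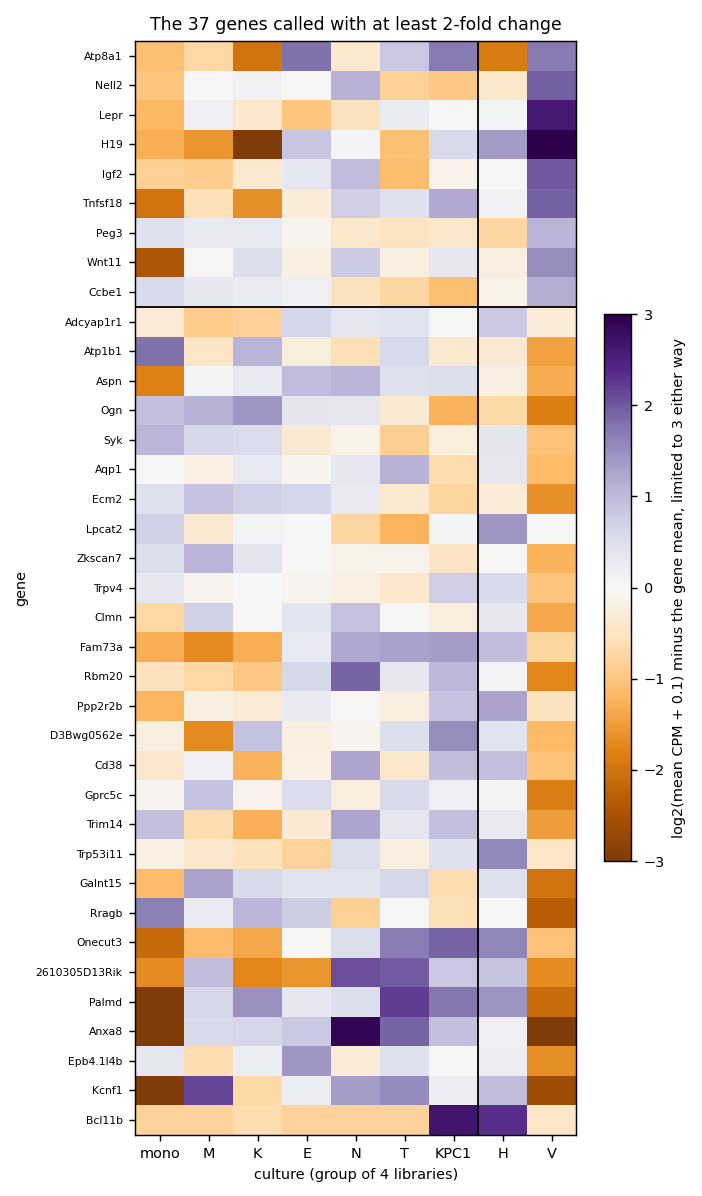
Heat map of the 37 called genes with at least a 2-fold difference (rows, 9 higher and 28 lower with clone V) in the 9 groups (columns), as log2 of mean CPM plus 0.1 minus the mean of the gene over groups, with colours limited at 3 either way. Clone V is the highest group for 8 of these genes and the lowest for 14.

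A separate fit used the 28 libraries of the other 7 groups, so that no clone H or clone V value entered it. It is not wholly separate from the choice of genes, because those 28 libraries had shared the filter and the estimate of spread in the fit that called the 56. Genes of low spread are favoured in both, and the shares below are a description, not independent support. Among clones E, K, M, N and T, 46 of the 56 genes (82.1%) were called by edgeR's quasi-likelihood F-test, beside 48.5% of all tested genes. The 10 that were not called were Peg3, Wnt11, Acly, Acss2, Trpv4, Ppp2r2b, Trp53i11, Galnt15, Palmd and Bcl11b. Between the mean of those 5 clones and mono-culture 33 of the 56 (58.9%) were called, beside 43.1% of all tested genes, 23 of them higher in co-culture (19.9% of tested genes were) and 10 lower (23.2% were). Of the 14 genes higher with clone V, 8 were called higher and 1 lower in the other co-cultures, and of the 42 lower with clone V, 15 were called higher and 9 lower.

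Values of single genes in that fit were as follows. Wnt11 was higher in the other co-cultures than in mono-culture by a log2 difference of 2.91 (adjusted p = 3.5e-06, above all mono-culture libraries in 20 of 20 libraries), and Tcf7 by 1.74 (adjusted p = 1.6e-10, 20 of 20). Aspn was higher by 2.37 (adjusted p = 9.5e-10, 20 of 20). Acly and Acss2 were lower by log2 differences of -0.66 and -0.75, below all mono-culture libraries in 20 of 20 libraries each. Ccbe1, the gene with opposite directions in clones H and V, was lower in the other co-cultures (-0.72, 17 of 20 libraries below mono-culture), as it was with clone H. H19 and Ogn were not called against mono-culture in the other clones (log2 differences 0.33 and -0.36), whereas both varied among those clones.

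Promoters of the 56 genes were described beside those of all tested genes, at the first listed start of each gene. The matching was unlike: called genes were also matched by a newer name, and tested genes by the name in the data alone. Matched by a newer name were 2610305D13Rik, D3Bwg0562e and Sept4, each with a CpG ratio under 0.5, and Epb4.1l4b, with a higher one. The median GC content of the 39 windows was 61.3%, and 61.0% over tested genes, while the ratio of observed to expected CpG had a median of 0.633, beside 0.765. The ratio was under 0.5 in 17 of the 39 windows (43.6%), Ecm2, Aspn and Ogn among them with 0.342, 0.422 and 0.303, and in 20.2% of tested windows. The E-box CACGTG was found in 1 of the 39 windows (10.1% of tested windows on either strand) and the sterol response element TCACNCCAC in 1, that of Kcnf1 (1.04%). A match of letters is a description and says nothing of binding.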

How the data were processed

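RNA of mouse pancreatic fibroblasts was poly(A)-selected from 200 ng of total RNA, amplified for 14 cycles and sequenced as strand-specific 76-bp pairs. Per the labels, the submitters' processing notes name STAR, featureCounts, edgeR and mm10 (GRCm38), with no versions or roles. The authors deposited whole-number counts per gene, and also RPKM values, which were used for an alternative only and lacked 132 of the tested genes. Counts were tested with edgeR 4.0.16 (R 4.3.3): genes were filtered by filterByExpr over the 9 groups, scaled by TMM and fitted with 1 coefficient per group over 36 libraries by the quasi-likelihood method. CPM in the text are counts scaled to the library total over tested genes times the TMM factor of the library. A separate fit of 28 libraries left out clones H and V, with the same gene set. DESeq2 1.42.0, limma 3.58.1 and other filters, scalings and sample sets were alternatives.

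The genes and lists were chosen with earlier results of these data known. Every called gene was named except 1, which is not reported here. Library values were given for up to 12 genes in each direction with the largest change, at least 2 CPM and no overlap between clones, and others were chosen after their values were seen. The genes nearest the threshold on each side, called list members and markers were also named. Promoters and neighbours were taken from RefSeq and GENCODE M21. The replicate numbers did not pair the libraries by the rule that every same-numbered pair correlate above 0.1. Libraries within each of the 9 groups differed by more than sampling noise. The statistical scripts were tested on simulated data.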

Additional observations from a re-analysis of the deposited data

Results flagged for a closer look

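In 3 of 60 examined sets of 4 libraries, the gap between 1 library and its nearest neighbour, as a share of the range, was over Dixon's 95% critical value, which chance passes in about 1 set in 20. Ccbe1 was at 16.1 CPM in clone V library 4, with a gap of 0.866 of the range, while the other clone V libraries lay between 9.46 and 10.4 CPM. Cd38 was at 1.78 CPM in clone V library 2, with a gap of 0.963, while the others lay between 0.490 and 0.538 CPM. The TMM scaling factor of clone H library 4 was 1.04, with a gap of 0.935, compared with 0.958 to 0.963 for the other clone H libraries.

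Ccbe1 also differed between the contrasts against mono-culture, lower with clone H and higher with clone V, and the difference between them was 1.32 on the log2 scale. This difference is the one by which the gene was chosen. The cause of these values was not tested.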

How the results depend on the processing

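The number of genes called was 56, and it depended on the processing. It was 57 with RLE scaling, 58 with library size only, 44 without a filter, 11 with at least 10 counts in every library, 172 by DESeq2, 35 by limma on log2(RPKM + 1), 58 on log2(RPKM + 0.1), 10 by voom with sample quality weights, 1 (Kcnf1) with only the 8 libraries of both clones (891 at an unadjusted p under 0.05), 144 at an adjusted p of 0.1, 37 at 2-fold or more and 100 with the epithelial covariate, chosen after seeing the data. The filter of 10 counts tested 28 of the 56 genes. Leaving out 1 library gave 17 to 125. The percentage of calls higher with clone V was 25 and became 35.5 by DESeq2, 80 by voom, 43 with the covariate, 63.2 without clone V library 1, 36.5 without library 2 and 41.4 without library 3.

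The replicate block gave 142 genes, with all 56 among them, and 6 within the 8 libraries. Same-numbered libraries of clones H and V correlated at 0.0232, 0.21, 0.357 and 0.256 in their deviations from group means, and clone H libraries 1 and 2 correlated better with clone V libraries 2 and 1, so that the numbers were not taken as pairing. The titles do number the co-culture libraries replicate by replicate, and library 2 had the lowest epithelial sum in every co-culture except clone N. Whether libraries of 1 replicate number were handled together is not given. In the fit of 28 libraries the block gave 49 of the 56 genes among clones and 34 against mono-culture, where 57% and 46.8% of all tested genes were called.

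Called list members were 5, and 3 without a filter, 1 with 10 counts in every library, 10 with the replicate block and 0 to 6 without 1 library. The share of intervals within a 2-fold change was 79.9% and 46.5% without a filter. Counts in the fit of 28 libraries ranged from 38 to 49 among clones and 28 to 35 against mono-culture, while the share of all tested genes called ranged from 29.6% to 58% and from 29.8% to 49.9%. No named gene reversed in any alternative. Except where a value above shows it, the cause was not tested.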

Other observations

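Genes that were not called can still differ widely at this spread. Among genes with at least 2 CPM, and chosen after their values were seen, Nptx1, a secreted neuronal pentraxin, was at 214 ± 136 CPM with clone H and at 35.3 ± 39.1 CPM with clone V (SD, n = 4), a log2 difference of -2.61. Hsd11b1, which regenerates active glucocorticoid, had a log2 difference of 2.21 and Macc1 one of -2.26. Clu, the secreted chaperone clusterin, was at 77.2 ± 37.3 CPM in the clone H libraries and 19.4 ± 13.5 CPM in the clone V libraries. None of the 4 passed the threshold of edgeR's quasi-likelihood test.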
